A study of Mus musculus with 20 samples.

Results

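The Eph receptors and ephrins described here are 10 genes of the 45706 counted in these samples. They were chosen by name, with earlier results of these data known, so shares of members set beside those of all genes are descriptions. They are the receptors Epha1, Epha2, Epha4, Epha7, Ephb2, Ephb3 and Ephb4 and the ligands Efna1, Efnb1 and Efnb2. The mouse annotation holds 12 further Eph and ephrin genes, which are given more briefly. All 10 passed the filter on low counts in tumors and in cells, so no member was lost from any test. Of the 12 further genes, 9 passed in tumors and 6 in cells.

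The study compared polyoma middle T (PyMT) mammary cancers with and without cathepsin D, the lysosomal aspartic protease encoded by Ctsd. Tumor RNA came from C57BL/6N mice aged 18 weeks, 4 with control tumors and 4 with MMTV-cre;Ctsd-/- tumors. Every mouse carried the MMTV-PyMT transgene, which drives the oncogene in mammary epithelium, and the MMTV-driven Cre removed Ctsd in epithelium only, so the stroma of these tumors could still express it. The control tumors were Ctsd-competent and could carry floxed alleles.

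Cell RNA came from PyMT tumor cells that were Ctsd+/+ or Ctsd-/-. Each genotype was 1 spontaneously immortalized line from the tumor of 1 mouse, so genotype and line cannot be told apart in the cells. Both lines were kept in medium with 1% FCS (fetal calf serum) for 10 days, called 1% FCS, or for 12 weeks, called 1% FCS LT, with 3 samples in each of the 4 groups. The study describes the 3 samples of a group as independent experiments, so p-values measure the spread between experiments on 1 line and not between mice.

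Eph receptors are the largest family of receptor tyrosine kinases, and their ligands, the ephrins, are bound to the membrane of a neighboring cell. Contact between cells therefore starts a forward signal in the cell with the receptor and, for the transmembrane ephrin-B proteins, a reverse signal in the cell with the ligand. EphA receptors mostly bind the lipid-anchored ephrin-A ligands and EphB receptors the ephrin-B ligands, with Epha4 able to bind both kinds and Ephb4 preferring ephrin-B2. In epithelia, including that of the mammary gland, the system is known for cell sorting, boundary formation, adhesion and migration.

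The promoters of 4 members are shown because these genes had the largest differences between the cell lines or over culture time. RefSeq entries of GRCm38.p6 were found for 10 of 10 members. Each line gives the 250 bases before the annotated start, 5′ to 3′ on the gene's strand. Capitals mark any match, on either strand, to an E-box bound by Snail and Zeb factors (CACCTG), a cAMP response element (TGACGTCA) or an AP-1 site (TGANTCA).
Epha4, chr1:77515089-77515338, minus strand: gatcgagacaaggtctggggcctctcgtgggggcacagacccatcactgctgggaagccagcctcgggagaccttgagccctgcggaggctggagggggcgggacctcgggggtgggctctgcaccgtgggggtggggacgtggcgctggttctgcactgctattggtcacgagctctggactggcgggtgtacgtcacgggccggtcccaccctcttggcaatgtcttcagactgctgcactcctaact
Ephb2, chr4:136836013-136836262, minus strand: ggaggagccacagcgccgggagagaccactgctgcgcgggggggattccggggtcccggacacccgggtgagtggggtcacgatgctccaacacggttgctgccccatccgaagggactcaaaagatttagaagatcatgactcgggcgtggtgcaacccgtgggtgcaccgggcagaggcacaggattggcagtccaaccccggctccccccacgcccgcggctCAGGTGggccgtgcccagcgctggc
Efnb2, chr8:8661243-8661492, minus strand: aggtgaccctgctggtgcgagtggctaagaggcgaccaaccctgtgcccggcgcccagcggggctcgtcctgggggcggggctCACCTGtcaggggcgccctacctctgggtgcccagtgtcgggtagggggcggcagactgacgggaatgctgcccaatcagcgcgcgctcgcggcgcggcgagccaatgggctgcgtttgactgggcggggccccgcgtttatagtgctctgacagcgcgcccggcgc
Epha1, chr6:42373269-42373518, minus strand: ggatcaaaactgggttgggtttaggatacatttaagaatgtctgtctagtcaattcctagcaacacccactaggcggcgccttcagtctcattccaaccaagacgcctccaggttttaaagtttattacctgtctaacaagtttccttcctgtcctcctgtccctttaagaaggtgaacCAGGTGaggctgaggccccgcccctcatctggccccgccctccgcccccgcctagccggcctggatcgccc
The E-box letters stood once in the Ephb2, Efnb2 and Epha1 windows, 25, 167 and 71 bases before the start, and no motif stood in that of Epha4. Over the 12 promoters of the 10 members, the E-box stood in no other window. The only cAMP response element was in Epha2, 33 bases before the start, and no member had the AP-1 site. Over all 32851 promoters of the same length, 17.2% held the E-box, 1.55% the cAMP response element and 6.75% the AP-1 site. The 4 windows differed in base composition, with 72% G and C in Efnb2, 68.4% in Ephb2, 66% in Epha4 and 54.4% in Epha1 against a median of 52.4% over all promoters. These matches are a description of the letters and not of binding.

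Libraries held 49725437 to 64291587 gene counts in tumors and 33622831 to 40239762 in cells. Ctsd, the deleted gene, was at 1781 to 2617 CPM in control tumors and 360 to 1295 CPM in MMTV-cre;Ctsd-/- tumors, and at 1267 to 4199 CPM in all Ctsd+/+ cells against 114 to 192 CPM in all Ctsd-/- cells. CPM, the unit used within a gene, is its count relative to the library total after scaling by the trimmed mean of M-values (TMM). Control tumors and MMTV-cre;Ctsd-/- tumors carried different LR numbers in their labels, so this number and genotype cannot be told apart in tumors.

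Both groups of Ctsd+/+ cells stood apart from the Ctsd-/- cells and from each other. On the first principal component (53.3% of the variance) the 1% FCS Ctsd+/+ samples lay at -126 to -107 and the other 9 at -30.7 to 86.4, and on the second (28.7%) the 1% FCS LT Ctsd+/+ samples lay at -107 to -95.0 and the other 9 at 11.9 to 56.9. In 1% FCS Ctsd+/+ cells the summed level of 8 luminal epithelial markers was 1017 to 2163 CPM, against 5908 to 12950 CPM in the other 3 cell groups. The summed level of 8 fibroblast markers was 1178 to 3310 CPM in the same samples, against 3.05 to 99.8 CPM elsewhere. Col1a1 (531 to 2320 CPM) and Pdgfrb (160 to 694 CPM) made up most of this sum. Col3a1 was at 18.4 to 265 CPM and Pdgfra at 10.9 to 74.3 CPM. Of the rest, Col1a2 was at only 0.510 to 3.69 CPM and Dcn at 0 to 1.86 CPM. The last 2 of the 8 markers, Lum and Thy1, were at 0 in all 3 samples. In 1% FCS LT Ctsd+/+ cells 5 macrophage markers summed to 54.9 to 63.8 CPM, most of it Csf1r (53.0 to 58.2 CPM), against 6.51 to 27.3 CPM in the other cell groups. The part of these markers in any result that uses the Ctsd+/+ cells was not tested. The comparisons between the lines in 1% FCS LT and over time within the Ctsd-/- line do not contrast the 1% FCS Ctsd+/+ group. Its 3 libraries still entered the filter, the scaling and the estimate of spread in the shared fit. Without its libraries in the fit these comparisons called 7 and 2 of the 10 genes, beside 43.5% and 4.13% of all genes. With only the 2 groups compared in the fit, and so without the 1% FCS LT Ctsd+/+ libraries, 5 of 10 were called between the lines in 1% FCS and 2 of 10 over time in the Ctsd-/- line, beside 44.2% and 3.89% of all genes.

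Between genes, levels were compared as TPM, a transcript share of the library that takes the exon length of each gene into account. By this measure Efna1, an ephrin-A ligand of Epha2, was the highest ligand in both tumor groups and in 3 of the 4 cell groups, and Efnb2 was the highest in 1% FCS Ctsd+/+ cells. In tumors Efna1 was above all receptors, at 107 ± 19.1 TPM (SD, n = 4) in control and 116 ± 33.02 TPM in MMTV-cre;Ctsd-/- tumors. It was followed by Ephb4 at 44.6 and 42.1 TPM, Epha2 at 24.6 and 24.1 TPM and Ephb3 at 16.9 TPM in both groups, and the ranges of Ephb4 and Epha2 and those of Epha2 and Ephb3 overlapped in each group, while those of Ephb4 and Ephb3 did not. The other 6 genes had means under 7 TPM, with Ephb2 lowest at 0.408 ± 0.304 TPM and 0.837 ± 0.180 TPM.

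In cells the order was different. Epha2 led in 3 of 4 groups, with means of 370 TPM in 1% FCS Ctsd+/+, 477 TPM in 1% FCS Ctsd-/- and 452 TPM in 1% FCS LT Ctsd-/- cells. In 1% FCS LT Ctsd+/+ cells Ephb4 stood first at 274 ± 30.4 TPM (n = 3) and Epha2 next at 241 ± 71.1 TPM, with overlapping ranges. Epha7 was last in every cell group, at 0.597 to 2.35 TPM. Tumor and cell libraries were prepared from different amounts of RNA and counted in a different way, so levels were not tested between them.

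**Figure D1:**
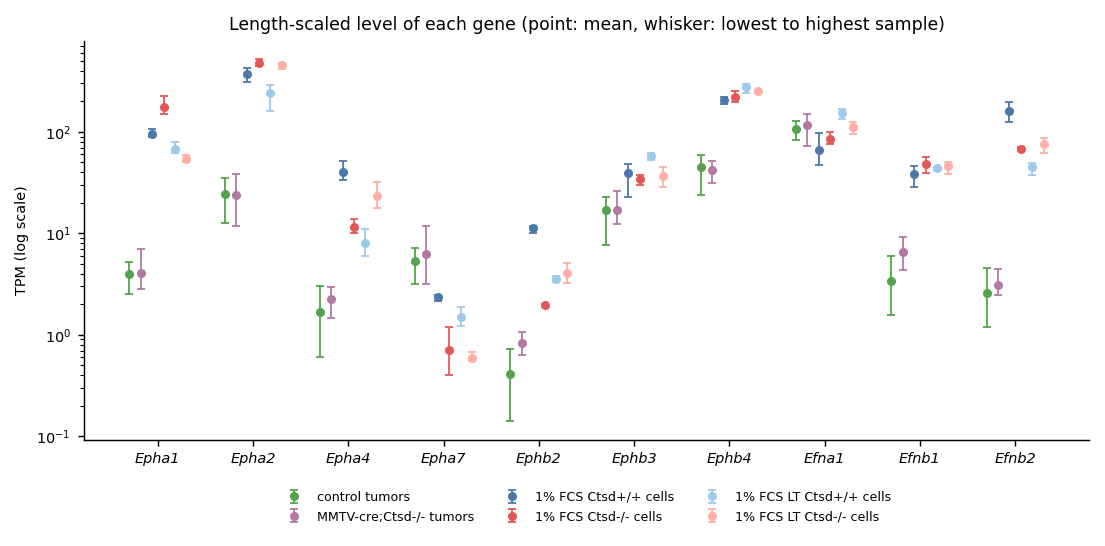
Level of each of the 10 genes in TPM on a log axis, by group. Points are group means (4 tumors or 3 cell samples) and whiskers run from the lowest to the highest sample. Efna1 is the highest gene in both tumor groups, and Epha2 and Ephb4 are the highest receptors in every cell group.

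Among the ligands, the ephrin-B share had its highest mean in 1% FCS Ctsd+/+ cells. The ephrin-B genes Efnb1 and Efnb2 made up 75.5% ± 5.1 (SD, n = 3) of the TPM of the 3 ligands in the Ctsd+/+ line in 1% FCS and 36.4% ± 3.0 after 12 weeks. In the Ctsd-/- line the same share was 57.9% ± 3.4 in 1% FCS and 52.1% ± 6.7 in 1% FCS LT. Over all 8 ephrin genes of the family, which include the abundant Efna4 and Efna5, the ephrin-B share was 53.6% ± 4.8 and 24.8% ± 1.9 in the Ctsd+/+ line and 38.1% ± 2.1 and 36.3% ± 5.1 in the Ctsd-/- line. Of the 3 ligands alone it was 5.05% ± 2.1 in control tumors and 8.46% ± 4.2 in MMTV-cre;Ctsd-/- tumors (n = 4 each), and of all 8 it was 3.42% ± 1.3 and 5.27% ± 2.8. On the receptor side, the 3 EphB members held 63.2% and 63.4% of the TPM of the 7 receptor members in the 2 tumor groups. In cells this share ranged from 27.8% ± 1.2 in 1% FCS Ctsd-/- to 51.8% ± 4.3 in 1% FCS LT Ctsd+/+ cells. The receptor shares leave out the further family genes. Among these, Ephb6 had means of 13.6 and 12.3 TPM in control and MMTV-cre;Ctsd-/- tumors and 42.2 to 105 TPM in the cell groups. These shares are descriptions without a test.

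In tumors, none of the 10 genes differed between genotypes by the adjusted test. Ephb2 and Efnb1 were the only members past the looser limit that the study used for tumors, and both had the higher mean in MMTV-cre;Ctsd-/- tumors. By edgeR's quasi-likelihood test with Benjamini-Hochberg adjustment over 18617 genes, 0 of 10 had an adjusted p under 0.05, against a background of 0.00537% of all genes. DESeq2 and limma-voom also called 0 of 10, beside 1.42% and 0.0107% of all genes. At an unadjusted p under 0.1, 2 of 10 members passed, against 16.7% of all genes. At an unadjusted p under 0.05, 0 of 10 passed, against 1665 of the 18617 genes. The values of the 2 groups overlapped for all 10 members, and no share over all genes is given for this. The median log2 fold change of the members was -0.0016 against 0.00073 for all genes. In bulk tissue, fewer cells of a type and less RNA per cell cannot be told apart.

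Among the tumor receptors, Ephb2, a receptor known from epithelial sorting in the intestine, was at 3.30, 2.86, 0.796 and 1.22 CPM in the 4 control tumors and 4.60, 2.97, 4.91 and 3.85 CPM in the MMTV-cre;Ctsd-/- tumors. Control tumors 3 and 4 were low, and control tumor 1 lay above the lowest MMTV-cre;Ctsd-/- tumor. In control tumors 3 and 4, 12.4% and 15.6% of reads overlapped several genes, against 7.11% to 9.75% in the other tumors. Their fibroblast marker sums, 868 and 980 CPM, and endothelial marker sums, 60.6 and 60.2 CPM, were the lowest of all tumors. The part of these differences in the Ephb2 values was not tested. Its log2 fold change was 1.00 (SE 0.46, edgeR adjusted p = 0.563). The other receptors had log2 fold changes from -0.18 for Ephb4 to 0.37 for Epha4.

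Among the ligands, Efnb1 was at 4.24, 7.83, 2.45 and 5.33 CPM in control tumors and 6.14, 6.03, 10.5 and 12.5 CPM in MMTV-cre;Ctsd-/- tumors. Tumors 3 and 4 of the MMTV-cre;Ctsd-/- group were above every control tumor, and tumors 1 and 2 were within the control range. The log2 fold change was 0.82 (SE 0.39, edgeR adjusted p = 0.569). These 2 tumors also had the highest adipocyte marker sums, 8264 and 12980 CPM, against 242 to 2278 CPM in the control tumors and 3088 and 1229 CPM in the other MMTV-cre;Ctsd-/- tumors. With the adipocyte markers as a covariate the log2 fold change of Efnb1 was -0.27 (adjusted p = 0.993). All 8 adipocyte markers were themselves higher in MMTV-cre;Ctsd-/- tumors at an unadjusted p under 0.05 (edgeR, median log2 fold change 2.98). Covariate and genotype therefore cannot be told apart in these tumors, and the part of the markers was not tested. Endothelial markers, whose cells are a known site of Efnb2 and Ephb4, summed to 60.2 to 132 CPM in control and 83.8 to 385 CPM in MMTV-cre;Ctsd-/- tumors. Efna1 and Efnb2 had log2 fold changes of -0.04 and 0.19, and with the endothelial markers as a covariate that of Efnb2 was -0.0038. All 8 endothelial markers also had the higher level in MMTV-cre;Ctsd-/- tumors, 5 of them at an unadjusted p under 0.05 (edgeR), so the same limit holds.

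**Figure D2:**
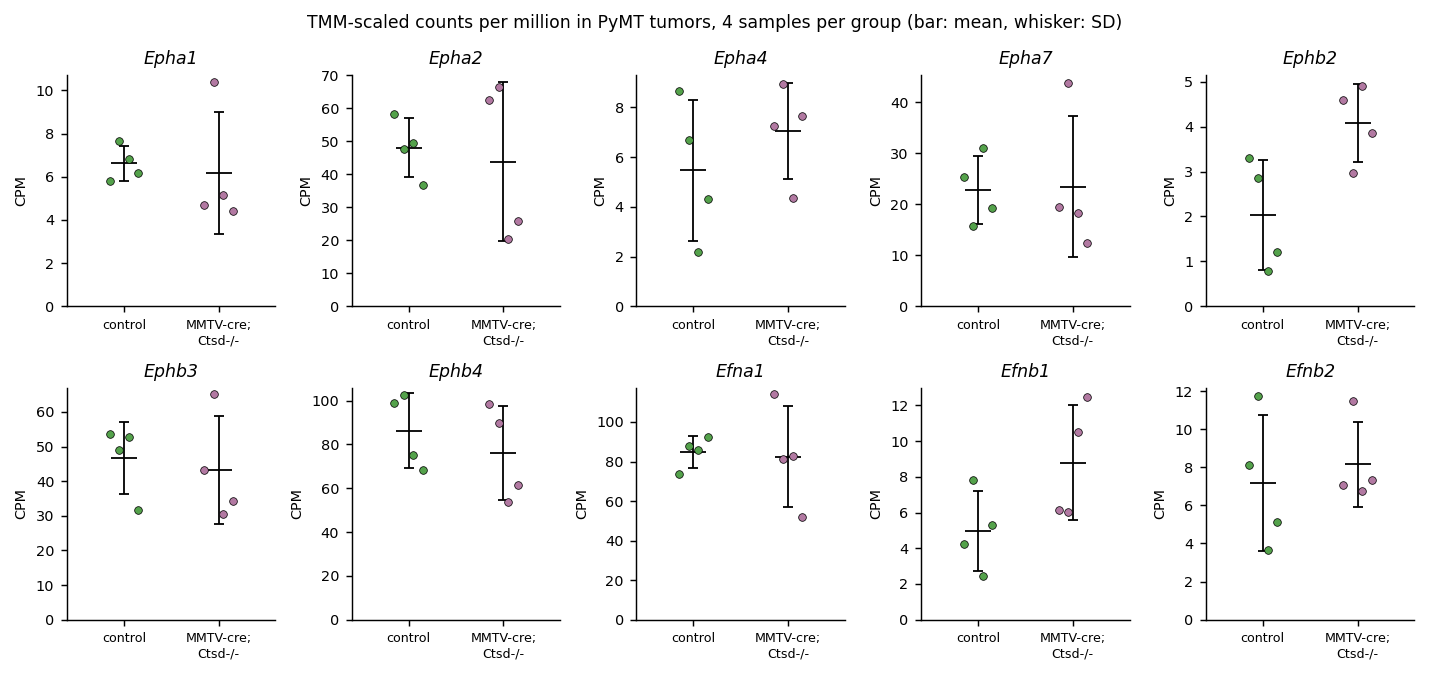
TMM-scaled CPM of the 10 genes in each tumor, with linear axes from 0. Points are the 4 tumors of a group, bars are means and whiskers are SD. The groups overlap in every panel, with the widest separation for Ephb2 and Efnb1.

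In 1% FCS cells, 5 of the 10 genes differed between the lines. Ephb2, Epha4, Epha7 and Efnb2 were lower in Ctsd-/- than in Ctsd+/+ cells and Epha1 was higher. Against 15178 genes tested by edgeR, 23.5% of all genes were called higher and 25.1% lower (adjusted p under 0.05), beside 1 of 10 and 4 of 10 members. With an absolute log2 fold change above 1 as well, 4 of 10 members and 25% of all genes were called. All 4 lower members are highest in the group with the fibroblast markers, whose part was not tested.

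After 12 weeks 7 of the 10 genes differed between the lines, of which Epha4, Epha7, Efnb2 and Epha1 had also been called in 1% FCS, and of these only Epha7 in the same direction. In 1% FCS LT, Epha4, Epha2 and Efnb2 were higher in Ctsd-/- cells and Epha7, Ephb3, Efna1 and Epha1 were lower. The higher members were 3 of 10 against 20.5% of all genes, and the lower ones 4 of 10 against 19.1%. Past an absolute log2 fold change of 1 were 2 of 10 members and 19.4% of all genes. Leaving out 1 library lowered the count of called members from 7 to 4 for 1% FCS LT Ctsd+/+ replicate 1 and for 1% FCS LT Ctsd-/- replicates 2 and 3. The share of all genes called was 39.6% with all libraries and 32.3%, 31.5% and 33.4% in these 3 fits.

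Over culture time, the Ctsd-/- line changed in few genes and the Ctsd+/+ line in many. In Ctsd-/- cells 1 of 10 members rose (Ephb2), against 1.57% of all genes, and 1 of 10 fell (Epha1), against 0.81%. Only Epha1 was past an absolute log2 fold change of 1, where 1.48% of all genes were. Without 1% FCS Ctsd-/- replicate 2 or 3 the count was 1 of 10, beside 0.404% and 0.391% of all genes. In Ctsd+/+ cells 3 of 10 rose (Efna1, Ephb3 and Ephb4), against 23%, and 3 of 10 fell (Epha4, Efnb2 and Ephb2), against 23.4% of all genes. Past the fold limit were 4 of 10 members and 23.4% of all genes.

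The interaction of genotype and time is the change over 12 weeks in the Ctsd-/- line minus that in the Ctsd+/+ line. At an adjusted p under 0.05 it was called and positive for Epha4, Ephb2 and Efnb2, 3 of 10 members against 16.1% of all genes. It was called and negative for Epha1 and Efna1, 2 of 10 against 14.1%. All 5 had an absolute log2 value above 1, as had 19.1% of all genes. These comparisons share samples, since each of the 4 groups enters 3 of the 5, so their values are given side by side and not as repeats of each other.

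**Figure D3:**
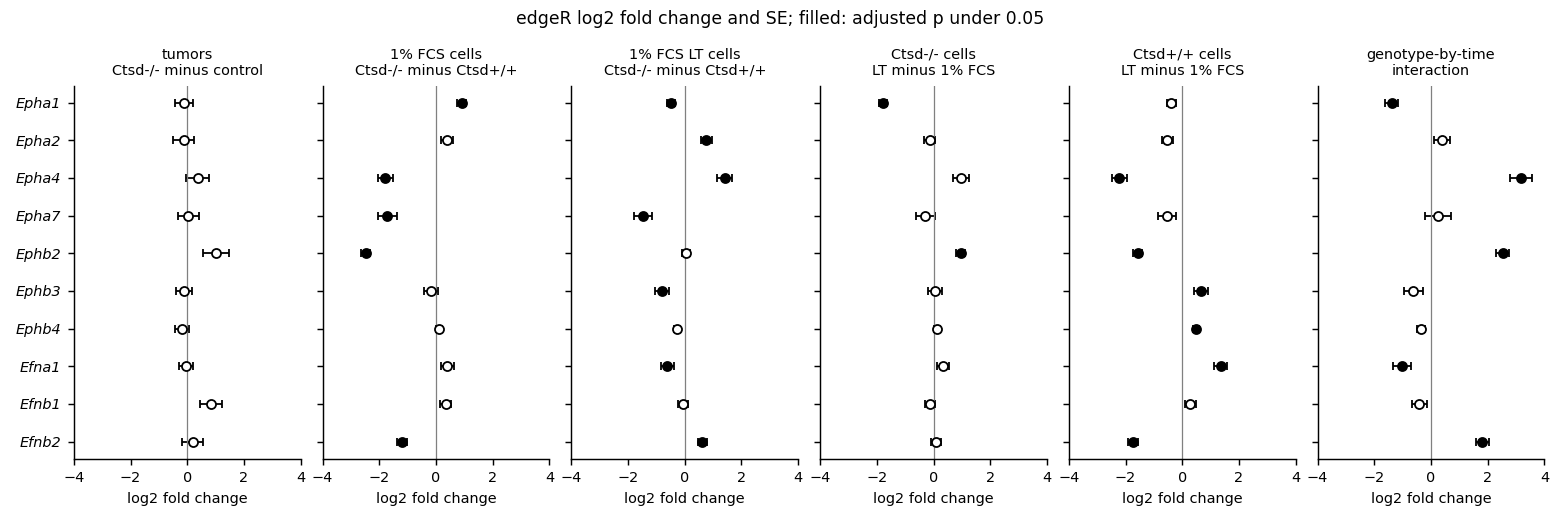
edgeR log2 fold changes of the 10 genes in the 6 comparisons, with whiskers for the SE. Filled points have an adjusted p under 0.05. Epha4 lies at -1.78 between the lines in 1% FCS and at 1.40 in 1% FCS LT, and no point is filled in tumors.

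Among the EphA receptors, Epha4 had the largest interaction. This receptor binds ephrins of both classes and is known for repulsive guidance of axons. In 1% FCS the Ctsd+/+ samples had 107, 76.0 and 70.5 CPM and the Ctsd-/- samples 28.8, 22.7 and 22.2 CPM. In 1% FCS LT the Ctsd+/+ samples had 25.4, 16.0 and 13.4 CPM and the Ctsd-/- samples 65.3, 42.1 and 37.3 CPM. All Ctsd+/+ samples were above all Ctsd-/- samples in 1% FCS and all below them in 1% FCS LT. Epha4 was thus 3.44-fold lower in Ctsd-/- cells in 1% FCS (adjusted p = 0.000242, edgeR) and 2.64-fold higher in 1% FCS LT (adjusted p = 0.00163). Over time it fell by 2.21 on the log2 scale in the Ctsd+/+ line (SE 0.28, adjusted p = 6.29e-05).

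In the Ctsd-/- line the Epha4 log2 difference over time was 0.97 (SE 0.27), which did not pass in edgeR (adjusted p = 0.0843). It passed in DESeq2 (0.0136), without the filter on low counts (0.0164) and with only the 8 cell samples that share an LR number (0.0333). With replicate number as a block in the edgeR fit it was 0.94 and also passed (0.00662). The 2 groups did not overlap. The interaction was 3.19 on the log2 scale (SE 0.39, adjusted p = 0.000106). Among the 1% FCS LT Ctsd-/- samples, replicate 1 had both the highest Epha4 level and the highest fibroblast marker sum, 99.8 CPM against 14.5 and 9.51 CPM, of which Pdgfrb gave 84.9 CPM. Epha4 was highest in replicate 1 of every cell group. That replicate had the highest fibroblast marker sum in both Ctsd-/- groups and the lowest in both Ctsd+/+ groups, and the part of the markers was not tested. Without the 1% FCS Ctsd+/+ libraries in the fit, the difference in 1% FCS LT was 1.39 on the log2 scale (adjusted p = 0.00218, edgeR).

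Epha1, an EphA receptor of epithelia, went the other way. The Ctsd+/+ line had 88.9, 99.0 and 110 CPM in 1% FCS, where the Ctsd-/- line had 229, 170 and 159 CPM. After 12 weeks the values were 88.4, 71.7 and 67.4 CPM for the Ctsd+/+ line and 59.2, 50.7 and 52.4 CPM for the Ctsd-/- line. The Ctsd-/- samples were the highest of all in 1% FCS and the lowest of all in 1% FCS LT. The drop within the Ctsd-/- line was 3.44-fold (log2 fold change -1.78, SE 0.16, edgeR adjusted p = 0.000826). By p-value it ranked 2 among the 15178 genes of that comparison in the fit of all 12 cell samples. Without the 1% FCS Ctsd+/+ libraries in the fit its adjusted p was 0.00215 (edgeR).

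Between the lines, Epha1 was 1.87-fold higher in Ctsd-/- cells in 1% FCS (adjusted p = 0.000476, edgeR) and 1.40-fold lower in 1% FCS LT (adjusted p = 0.024). The latter call was lost without 1% FCS LT Ctsd+/+ replicate 1 (adjusted p = 0.107) and without 1% FCS LT Ctsd-/- replicate 2 (0.0863) or 3 (0.0704). In the Ctsd+/+ line the log2 difference over time was -0.39 and just missed the limit (adjusted p = 0.0535), with an adjusted p of 0.039 in DESeq2, 0.0472 in limma-voom, 0.0492 with DESeq2 size factors and 0.0367 with counts without regard to strand. It passed without 1% FCS Ctsd+/+ replicate 1 (0.0403) or 1% FCS LT Ctsd+/+ replicate 1 (0.0255). The interaction was -1.39 on the log2 scale (SE 0.22, adjusted p = 0.000584). Exons of Epha1 overlap those of Zyx on the other strand over 6.01% of their length, which concerns the unstranded tumor counts.

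Epha2, a receptor often studied in breast cancer, was abundant in every cell group. Ctsd+/+ samples had 373, 486 and 519 CPM in 1% FCS and 367, 213 and 378 CPM in 1% FCS LT. Ctsd-/- samples had 553, 574 and 668 CPM in 1% FCS and 495, 552 and 580 CPM in 1% FCS LT. Every Ctsd-/- sample was above every Ctsd+/+ sample of the same culture time. The difference passed in 1% FCS LT, at 1.70-fold (adjusted p = 0.0106, edgeR), and not in 1% FCS, at 1.30-fold (adjusted p = 0.14). The 2 differences were not shown to differ, with an interaction of 0.38 on the log2 scale (SE 0.29, adjusted p = 0.344).

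In the Ctsd+/+ line the Epha2 log2 difference over time was -0.52 (adjusted p = 0.0514, edgeR), and leaving out 1% FCS Ctsd+/+ replicate 1 (0.0252), 1% FCS LT Ctsd+/+ replicate 1 (0.0463) or replicate 3 (0.0351) brought it past the limit. It also passed in DESeq2 (0.0297), in limma-voom (0.0414), without the filter (0.0319) and with only the 8 samples of a shared LR number (0.0254). Epha7, a receptor known from the nervous system, was near the bottom of the range, with Ctsd+/+ samples at 5.95 to 6.30 CPM in 1% FCS and 3.35 to 5.27 CPM in 1% FCS LT, and Ctsd-/- samples at 1.10 to 2.99 CPM and 1.36 to 1.77 CPM. It was lower in the Ctsd-/- line at both times, by 3.31-fold (adjusted p = 0.00119) and 2.78-fold (adjusted p = 0.0043). The interaction was 0.25 on the log2 scale (SE 0.46, adjusted p = 0.722).

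**Figure D4:**
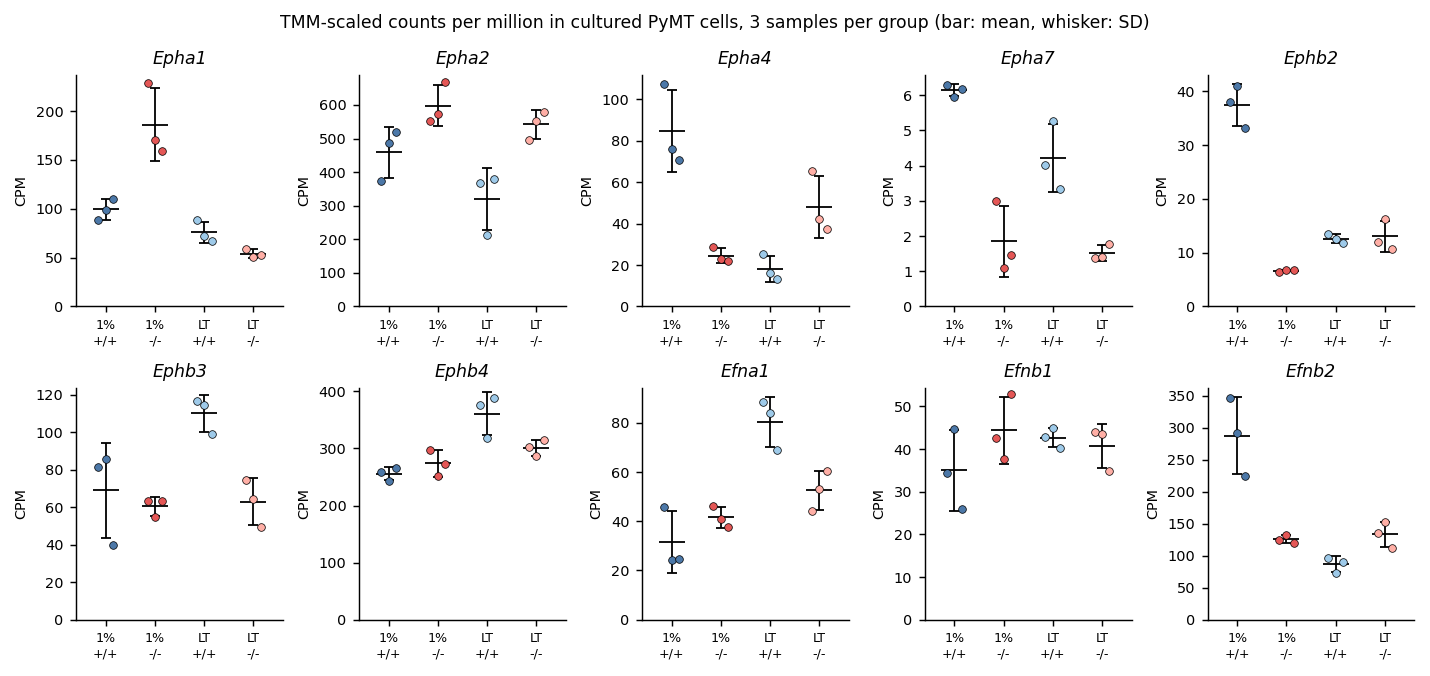
TMM-scaled CPM of the 10 genes in the 12 cell samples, with linear axes from 0. Points are the 3 samples of a group, bars are means and whiskers are SD. Epha4, Ephb2 and Efnb2 are highest in 1% FCS Ctsd+/+ cells, and Epha1 is highest in 1% FCS Ctsd-/- cells.

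Of the EphB receptors, Ephb2 differed most between the lines in 1% FCS. There the Ctsd+/+ samples had 38.1, 41.1 and 33.2 CPM and the Ctsd-/- samples 6.47, 6.82 and 6.74 CPM. After 12 weeks it was at 13.5, 12.6 and 11.8 CPM in the Ctsd+/+ line and at 11.9, 16.3 and 10.8 CPM in the Ctsd-/- line. The lines were far apart in 1% FCS and overlapped in 1% FCS LT. The fold differences were 5.61-fold lower in Ctsd-/- cells in 1% FCS (adjusted p = 4.82e-07, edgeR) and 1.03-fold in 1% FCS LT (log2 0.04, SE 0.16, adjusted p = 0.849).

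Over time Ephb2 fell by 1.57 on the log2 scale in Ctsd+/+ cells (adjusted p = 1.19e-05, edgeR) and rose 1.95-fold in Ctsd-/- cells (adjusted p = 0.0126). The rise missed the limit without 1% FCS Ctsd-/- replicate 2 (adjusted p = 0.0592) or 3 (0.0596), while its log2 value stayed at 0.98 and 0.97. The interaction was 2.53 on the log2 scale (SE 0.22, adjusted p = 1.29e-05).

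Ephb3, like Ephb2 a receptor for ephrin-B ligands, had 81.6, 85.8 and 39.9 CPM in the Ctsd+/+ line and 63.6, 54.7 and 63.5 CPM in the Ctsd-/- line in 1% FCS. The 1% FCS LT values were 117, 115 and 99.0 CPM in the Ctsd+/+ line and 74.8, 64.3 and 49.7 CPM in the Ctsd-/- line. Replicate 3 of 1% FCS Ctsd+/+ was the lowest of all 12 samples, and the 1% FCS LT Ctsd+/+ samples were the highest. Ephb3 was 1.75-fold lower in Ctsd-/- cells in 1% FCS LT (adjusted p = 0.0198, edgeR) and rose 1.59-fold over time in Ctsd+/+ cells (adjusted p = 0.0382). Both calls were lost in some of the alternatives.

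The Ephb3 difference in 1% FCS LT had adjusted p-values of 0.0566 and 0.0555 without 1% FCS LT Ctsd+/+ replicates 1 and 2, and of 0.0522 and 0.0775 without 1% FCS LT Ctsd-/- replicates 2 and 3, and of 0.088 with only the 8 samples of a shared LR number. In the fit without the 1% FCS Ctsd+/+ libraries the adjusted p of this difference was 0.00148 (log2 -0.82, edgeR). The rise of Ephb3 in Ctsd+/+ cells had adjusted p-values of 0.0698 without 1% FCS Ctsd+/+ replicate 3 and 0.0916 and 0.0905 without 1% FCS LT Ctsd+/+ replicates 1 and 2, and of 0.0896 with only the 2 groups compared. In 1% FCS the log2 difference between lines was -0.19 (adjusted p = 0.543), and without 1% FCS Ctsd+/+ replicate 3 it was -0.49 and passed (adjusted p = 0.0282).

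Ephb4, the partner of ephrin-B2 that is known from veins and from mammary epithelium, varied little. The Ctsd+/+ line ranged from 243 to 265 CPM in 1% FCS and from 318 to 388 CPM in 1% FCS LT. The Ctsd-/- line ranged from 251 to 298 CPM and from 286 to 314 CPM. It rose 1.41-fold over time in the Ctsd+/+ line (adjusted p = 0.00223, edgeR). Between the lines the log2 difference in 1% FCS was 0.10 (SE 0.10, adjusted p = 0.449), and in 1% FCS LT it was -0.26 (SE 0.10, adjusted p = 0.0673). The latter was -0.34 and passed without 1% FCS LT Ctsd+/+ replicate 2 (adjusted p = 0.0319), as did the interaction (-0.36 with all samples, adjusted p = 0.0865, and -0.45 without that library, 0.0451). With all samples, DESeq2 called both (adjusted p = 0.025 and 0.0493).

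Turning to the ligands, Efnb2 was, like Epha4, lower in the Ctsd-/- line in 1% FCS and higher there after 12 weeks. The transmembrane ligand of Ephb4 had 347, 292 and 225 CPM in the 1% FCS samples of the Ctsd+/+ line and 125, 132 and 120 CPM in those of the Ctsd-/- line. The 1% FCS LT samples had 96.9, 73.2 and 90.8 CPM (Ctsd+/+) and 135, 152 and 113 CPM (Ctsd-/-). The 3 samples of 1% FCS Ctsd+/+ were above all others and the 3 of 1% FCS LT Ctsd+/+ below all others, with both Ctsd-/- groups between them. The summed level of 8 endothelial markers was 31.4 to 87.6 CPM in 1% FCS Ctsd+/+ cells, 5.71 to 11.2 CPM in the Ctsd-/- groups and 0.838 to 1.72 CPM in 1% FCS LT Ctsd+/+ cells. In 1% FCS Ctsd+/+ cells most of it was Flt1 (29.0 to 81.0 CPM), and Tie1 and Cldn5 were at 0. Cdh5 was lower there (0 to 0.0523 CPM) than in the Ctsd-/- groups (0.283 to 0.602 CPM). Kdr overlapped with those groups (1.19 to 4.92 against 1.51 to 6.22 CPM) and was lowest in 1% FCS LT Ctsd+/+ cells. Tek reached 1.47 CPM in 1% FCS Ctsd+/+ cells and at most 0.203 CPM elsewhere. The part of these markers was not tested.

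Efnb2 was 2.29-fold lower in Ctsd-/- cells in 1% FCS (adjusted p = 0.000118, edgeR) and 1.53-fold higher in 1% FCS LT (adjusted p = 0.0109). The latter call missed the limit without 1% FCS LT Ctsd+/+ replicate 2 (0.051). It fell by 1.73 on the log2 scale over time in the Ctsd+/+ line (adjusted p = 9.55e-06). In the Ctsd-/- line the log2 difference over time was 0.08 (SE 0.16, adjusted p = 0.842), and the interaction was 1.81 (SE 0.23, adjusted p = 0.000164).

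Efna1, the ligand of Epha2 and highest member of the tumors, rose over time in the Ctsd+/+ line. That line had 45.9, 24.2 and 24.6 CPM in 1% FCS and 88.5, 84.0 and 69.0 CPM in 1% FCS LT. The Ctsd-/- line had 46.3, 40.9 and 37.9 CPM and then 44.3, 53.1 and 60.3 CPM. All 1% FCS LT Ctsd+/+ samples were above the other 9. The rise was 2.55-fold (adjusted p = 0.000534, edgeR). In 1% FCS the log2 difference between lines was 0.40 (adjusted p = 0.163), and 0.77 without 1% FCS Ctsd+/+ replicate 1, the only sample of its group above 25 CPM (adjusted p = 0.00217).

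After 12 weeks Efna1 was 1.53-fold lower in the Ctsd-/- line, just past the limit (adjusted p = 0.0479, edgeR). That call was lost without 1% FCS LT Ctsd+/+ replicate 1 (0.135) or 2 (0.115) and without 1% FCS LT Ctsd-/- replicate 1 (0.153), 2 (0.107) or 3 (0.052), and with counts without regard to strand (0.0515). In the fit without the 1% FCS Ctsd+/+ libraries the adjusted p was 0.00411 (log2 -0.63, edgeR). The Efna1 interaction of -1.02 on the log2 scale (SE 0.32, adjusted p = 0.0315) was also lost in 8 of the 12 fits that left out 1 library, with adjusted p-values up to 0.0773. Those were 1% FCS Ctsd+/+ replicates 2 and 3, and replicates 1 and 2 of each of the other 3 groups, and the log2 value ranged from -1.38 to -0.87.

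Efnb1, the ephrin-B ligand encoded on the X chromosome, did not pass in any cell comparison. The Ctsd+/+ line ranged from 25.9 to 44.7 CPM in 1% FCS and from 40.3 to 44.8 CPM in 1% FCS LT, and the Ctsd-/- line from 37.6 to 53.0 CPM and from 34.8 to 43.9 CPM. All 4 ranges overlapped, with log2 differences from -0.41 for the interaction to 0.34 between the lines in 1% FCS. Without 1% FCS Ctsd+/+ replicate 2 the latter was 0.56 (adjusted p = 0.0291), and the difference over time in the Ctsd+/+ line was 0.51 (adjusted p = 0.0449).

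Several members varied together over the 12 cell samples. Pearson correlations of log2 CPM, given as descriptions, were highest for Epha4 with Efnb2 (r = 0.891), Ephb4 with Efna1 (0.816) and Ephb2 with Efnb2 (0.763), and lowest for Epha2 with Ephb3 (-0.754). The 12 points share 4 groups and a pair of lines, so these values include the group differences. The genes whose profile was most like that of Epha4 were Marveld1 (r = 0.975), Nin (0.972) and Myo9a (0.972). For Ephb2 they were Pcdhgc3 (0.979), Serpini1 (0.966) and Tmeff2 (0.966), and for Efnb2 they were Dnajc10 (0.984), Fkbp7 (0.978) and Ext1 (0.977).

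**Figure D5:**
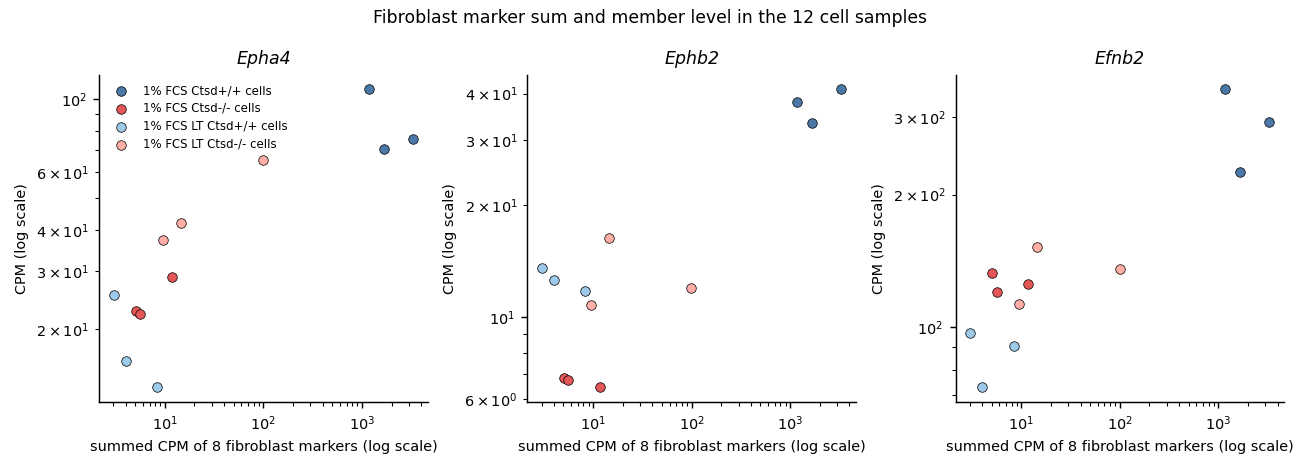
Summed CPM of 8 fibroblast markers (x axis, log scale) against the CPM of Epha4, Ephb2 and Efnb2 (y axis, log scale) in the 12 cell samples. The 3 samples of 1% FCS Ctsd+/+ cells have 1178 to 3310 CPM of markers and lie above all other samples in the 3 panels. The other 9 samples have 3.05 to 99.8 CPM of markers.

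Epha4, Ephb2, Efnb2 and Epha7, the members with every 1% FCS Ctsd+/+ sample above all others, can also be read within that group. Replicate 2 had the highest fibroblast marker sum, 3310 CPM, and replicate 1 the lowest, 1178 CPM. Epha4, Efnb2 and Epha7 were highest in replicate 1 and Ephb2 in replicate 2. With 3 samples the order was not tested.

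The 12 further family genes were less abundant on the whole, and 6 of them passed the filter in cells and 9 in tumors. In tumors 0 of 9 were called, beside 0.00537% of all genes. The lowest p-value there was that of Epha5 (log2 fold change -2.01, edgeR adjusted p = 0.566), which had at most 140 counts in any tumor. The ephrin-A ligand Efna5 was abundant there, at 46.4 ± 31.9 TPM in control and 63.2 ± 38.0 TPM in MMTV-cre;Ctsd-/- tumors (SD, n = 4), the highest ligand after Efna1. In cells Efna4 was at 49.3 to 79.3 TPM by group mean. Epha6, Epha8 and Epha10 had at most 17 counts in any sample, and Ephb1 at most 2 in any cell sample.

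Efna3 was lower in Ctsd-/- cells at both times. In 1% FCS the Ctsd+/+ samples ranged from 2.38 to 8.64 CPM and the Ctsd-/- samples from 0.356 to 0.560 CPM, a 10.5-fold difference (adjusted p = 0.000161, edgeR). After 12 weeks they ranged from 8.01 to 14.7 CPM and from 0.694 to 1.21 CPM, an 11.8-fold difference (adjusted p = 0.000122). Its interaction was -0.17 on the log2 scale (SE 0.67, adjusted p = 0.882), and it rose 2.26-fold in Ctsd+/+ cells over time (adjusted p = 0.0389). Exons of Efna3 share 14.1% of their length with a gene on the other strand, and cell counts were strand-specific.

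Efna4 and Efna5 differed between the lines in 1% FCS. Efna4 was 1.63-fold higher (adjusted p = 7.4e-05, edgeR) and Efna5 1.81-fold lower (adjusted p = 0.015) in Ctsd-/- cells. Efna4 also rose 1.61-fold over time in the Ctsd+/+ line (adjusted p = 0.000107), with an interaction of -0.95 on the log2 scale (adjusted p = 0.000253). Efna2, at under 2 CPM throughout, fell by 3.01 on the log2 scale in the Ctsd+/+ line (adjusted p = 0.000584) and was 4.13-fold higher in Ctsd-/- cells in 1% FCS LT (adjusted p = 0.00856), with an interaction of 2.85 (adjusted p = 0.00871).

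Epha3 was not tested in cells but was seen in 1 group. It had 145, 67 and 6 counts in 1% FCS Ctsd+/+ cells and at most 2 in any other cell sample, and the replicates differed widely. Ephb6, a receptor without kinase activity, was at 26.7 to 196 CPM in 1% FCS Ctsd+/+ cells and did not pass between the lines (log2 difference -1.31, adjusted p = 0.0766).

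In the reverse signaling list, of 8 proteins that bind the tail of ephrin-B, 8 were tested in cells. Between the lines, 4 were higher and 3 lower in Ctsd-/- cells in 1% FCS, and 1 higher and 5 lower in 1% FCS LT. Of all genes, 23.5% were higher and 25.1% lower in 1% FCS, and 20.5% and 19.1% in 1% FCS LT. The polarity factor Pard6b, which ephrin-B1 binds, ranged in 1% FCS from 13.3 to 31.9 CPM in the Ctsd+/+ line and from 148 to 172 CPM in the Ctsd-/- line (7.85-fold, edgeR adjusted p = 1.15e-05). Ptpn13, a phosphatase of ephrin-B, was 2.53-fold higher in the same cells (adjusted p = 3.18e-05). Rgs3, a regulator of G-protein signals, ranged in 1% FCS LT from 18.4 to 23.0 CPM in the Ctsd+/+ line and from 1.84 to 1.92 CPM in the Ctsd-/- line (10.7-fold lower, adjusted p = 3.53e-07). The PDZ protein Sdcbp was 2.01-fold lower in 1% FCS LT Ctsd-/- cells (adjusted p = 0.000121). Over time 1 of 8 fell in the Ctsd-/- line (Ptpn13), against 0.81% of all genes, and 5 of 8 rose in the Ctsd+/+ line, against 23%.

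Of 34 forward signaling genes, 33 were tested in cells. In Ctsd-/- cells 15 were higher and 6 lower in 1% FCS, and 16 higher and 4 lower in 1% FCS LT, with median log2 differences of 0.27 and 0.34 against 0.00025 and 0.014 for all genes. The shares of all genes called were 23.5% higher and 25.1% lower in 1% FCS and 20.5% and 19.1% in 1% FCS LT. Kalrn, which acts downstream of EphB receptors, ranged in 1% FCS from 34.8 to 80.7 CPM in the Ctsd+/+ line and from 0.246 to 1.39 CPM in the Ctsd-/- line (log2 -6.31, edgeR adjusted p = 7.89e-06). Over time Kalrn rose 6.32-fold in the Ctsd-/- line (adjusted p = 0.0334), where the 1% FCS samples had only 9 to 57 counts. In the Ctsd+/+ line it fell over time (log2 -5.03, edgeR adjusted p = 2.64e-05). In 1% FCS LT it ranged from 1.39 to 2.08 CPM in the Ctsd+/+ line and from 2.35 to 6.37 CPM in the Ctsd-/- line. The Rac inhibitor Chn2 (beta-chimaerin) was 8.69-fold higher in Ctsd-/- cells in 1% FCS (adjusted p = 1.75e-05) and 29.6-fold higher in 1% FCS LT (adjusted p = 2.72e-06). The kinase Fyn was 4.44-fold higher in 1% FCS LT (adjusted p = 1.84e-05). Ngef (ephexin), which binds Epha4, rose 17.5-fold in the Ctsd+/+ line over time (adjusted p = 2.65e-06).

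Of 15 genes for shedding, dephosphorylation and turnover, 14 were tested in cells. In Ctsd-/- cells 0 were higher and 4 lower in 1% FCS, and 3 higher and 4 lower in 1% FCS LT, beside the same shares of all genes (23.5% and 25.1%, then 20.5% and 19.1%). Mmp14, a membrane protease that cleaves Epha2, was at 341 to 602 CPM in 1% FCS and 541 to 674 CPM in 1% FCS LT in the Ctsd+/+ line, and at 0.268 to 0.463 CPM in all Ctsd-/- samples (log2 -10.29 and -10.70, edgeR adjusted p = 1.62e-09 and 2.06e-09). Ptprf, a phosphatase that acts on Epha2, had 633 to 754 CPM after 12 weeks in the Ctsd+/+ line and 119 to 129 CPM in the Ctsd-/- line (5.51-fold lower, adjusted p = 2.9e-06). In tumors 0 of 34, 0 of 8 and 0 of 15 genes of the 3 lists were called, beside 0.00537% of all genes.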

How the data were processed

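RNA sequencing data of 8 PyMT tumors and 12 samples of PyMT tumor cells were used. The authors trimmed reads with Trimmomatic and aligned them with STAR to mm10 (GRCm38), without versions given in the sources used here, and deposited raw counts per Ensembl gene in 3 forms: without regard to strand, on the gene's strand and on the opposite strand. Counts without regard to strand were used for tumors, where 52.8% to 53.7% of strand-assigned counts lay on the opposite strand, and opposite-strand counts for cells (97.1% to 97.3%). STAR's counting leaves out reads that map to several places (6.80% to 8.28% in tumors, 4.57% to 7.05% in cells) or overlap several genes (7.11% to 15.6% and 1.11% to 1.25%), which lowers genes with close paralogs or overlapping neighbors. Summary lines that name no gene stayed out of library sizes.

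Symbols and exon lengths came from GENCODE M21, which holds 45143 of the 45706 gene identifiers. Counts were filtered with filterByExpr, scaled with TMM and tested with the two-sided quasi-likelihood test of edgeR 4.0.16 in R 4.3.3, with Benjamini-Hochberg adjustment over all 18617 genes (tumors) or 15178 genes (cells). All 12 cell samples were fitted together. All p-values of genes in the text come from such fits. Log2 CPM used a prior count of 2. Thresholds followed the study: unadjusted p of 0.1 in tumors, adjusted p of 0.05 and absolute log2 fold change of 1 in cells. Scripts were tested on simulated data.

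Groups were taken from the sample labels. The chi-square per gene between replicates was 16.5 to 616 over 24 pairs, so no pair of samples was alike enough to be 1 library. The members and all gene lists were chosen with earlier results of these data known. Genes named are the 10 members, the other family genes that passed the filter, up to 3 genes per list and comparison with the largest absolute log2 fold change among those called and not overlapping between groups, the 3 genes per leading member with the highest correlation among genes with an average log2 CPM above 1, and Ctsd. Not all of these are printed, and Epha3 in cells and the family genes below the filter lie outside the rule. Alternatives were DESeq2 1.42.0, limma-voom (limma 3.58.1), DESeq2 size factors, no filter, the other count form, a replicate block, only the groups compared, only the 8 cell samples that share an LR number (a number in the sample labels whose meaning they do not give), marker covariates in tumors, each library left out, and, added after seeing the data, a fit without the 1% FCS Ctsd+/+ libraries. Promoter sequences are RefSeq's for GRCm38.p6. Protein sequences were not used here.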

Additional observations from a re-analysis of the deposited data

Results flagged for a closer look

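In MMTV-cre;Ctsd-/- tumors, 2 of the 10 genes had a sample far from the other 3 by Dixon's criterion for 4 samples. Tumor 2 had 10.4 CPM of Epha1 against 4.43 to 5.15 CPM in the others, and the same tumor had 11.5 CPM of Efnb2 against 6.77 to 7.33 CPM. Over 20 groups of values tested, chance flags about 1 in 20. Without this tumor the log2 fold change of Efnb2 was -0.03, and that of Epha1 was -0.48.

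In cells, 5 members and 2 further family genes changed over 12 weeks by an amount that differed between the lines, as tested by edgeR's interaction term. The members were 3 higher and 2 lower of 10, beside 16.1% and 14.1% of all genes. On the log2 scale the difference was 3.19 for Epha4, 2.53 for Ephb2, 1.81 for Efnb2, -1.39 for Epha1 and -1.02 for Efna1. For the ephrin-A ligands Efna2 and Efna4 it was 2.85 and -0.95. Beside these stand the fibroblast marker sums of the 4 groups, 1178 to 3310 CPM in 1% FCS Ctsd+/+ cells and 3.05 to 99.8 CPM elsewhere, and their part was not tested.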

How the results depend on the processing

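Of the 25 calls among the 10 genes over the 6 comparisons, none reversed under any alternative run, and 18 were kept in every one. The other 7 were lost at least once. There were 26 losses in fits that left out 1 library, where a fit counts once for each call it lost, and 4 losses in other alternatives. These are given beside each gene except for the replicate block. Leaving out 1 library gave 4 to 7 called members in 1% FCS LT, 1 to 2 over time in the Ctsd-/- line, 5 to 6 in 1% FCS, 5 to 8 over time in the Ctsd+/+ line, 4 to 5 for the interaction and 0 in tumors. In the same order, these fits called 31.1% to 35%, 0.391% to 2.53%, 39.9% to 46.4%, 38.6% to 44.3%, 23.4% to 31.1% and 0.0052% to 0.00526% of all genes. Replicate numbers were not used as pairs in the main fits. Correlations of deviations were -0.30 to -0.01 for same-numbered tumors and -0.29 to 0.36 for same-numbered cell samples. In cells the number went in part with the LR number. Replicate 1 of both 1% FCS groups carried an LR number seen in no other sample, and so did replicate 3 of both 1% FCS LT groups. No pair of groups had every same-numbered correlation over 0.1, although in 1% FCS they were 0.10 to 0.36, with 2 of 3 over 0.1 and a mean of -0.13 for other numbers, and the calls in 1% FCS did not change under the block. The 1% FCS LT Ctsd-/- samples had only positive same-numbered values with the other cell groups. They were 0.068 to 0.25 with 1% FCS Ctsd+/+, 0.077 to 0.19 with 1% FCS Ctsd-/- and 0.0018 to 0.12 with 1% FCS LT Ctsd+/+ samples. Whether same-numbered cell samples share a source was not tested. The replicate block gave 0 called members in tumors, 5 in 1% FCS, 7 in 1% FCS LT, 3 over time in the Ctsd-/- line, 8 in the Ctsd+/+ line and 5 for the interaction. In the same order the block called 0.00537%, 49.3%, 40.7%, 2.62%, 47.1% and 31.1% of all genes. It lost Efna1 in 1% FCS LT (adjusted p = 0.053) and added 4 calls: Epha4 over time in the Ctsd-/- line (log2 0.94, adjusted p = 0.00662), Epha1 (0.0359) and Epha2 (0.0411) over time in the Ctsd+/+ line and Ephb4 in 1% FCS LT (0.0399).

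All reversals were of members that had not passed. In tumors the adipocyte covariate gave log2 values of 0.22 for Efna1, -0.27 for Efnb1, 0.31 for Epha1, 0.76 for Epha2, 0.51 for Ephb3 and 0.17 for Ephb4. The endothelium covariate gave 0.24 for Efna1, -0.0038 for Efnb2, 0.0418 for Epha1, 0.30 for Epha2 and 0.0637 for Ephb3. Opposite-strand counts gave 0.0224 for Epha1, and for Epha7 limma-voom gave -0.0783, the replicate block -0.11 and the luminal epithelium covariate -0.11. With only the 8 cell samples that share an LR number, Epha7 over time in the Ctsd-/- line was 0.13. Leaving out 1 library gave log2 ranges in tumors of -0.24 to 0.13 for Efna1, -0.0318 to 0.54 for Efnb2, -0.48 to 0.0257 for Epha1, -0.41 to 0.10 for Epha2, -0.45 to 0.25 for Epha7 and -0.38 to 0.0211 for Ephb3. In 1% FCS LT the ranges were -0.12 to 0.0387 for Efnb1 and -0.15 to 0.17 for Ephb2, and for the Epha7 interaction -0.0096 to 0.80. Over time in the Ctsd-/- line they were -0.23 to 0.0239 for Efnb1, -0.0223 to 0.19 for Efnb2, -0.55 to 0.25 for Epha7 and -0.0861 to 0.20 for Ephb3. The cause was not tested in any of these.

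Over all genes, edgeR called 1 gene in tumors, limma-voom 2, edgeR without a filter 33 and DESeq2 265. Over time in the Ctsd-/- line edgeR called 361, DESeq2 1077, edgeR without a filter 680 and with only the 8 samples of a shared LR number 756, and the fit of only the 2 groups 543. With 4 tumors a group, differences of the size seen in Ephb2 and Efnb1 could not be told from the spread between tumors. Depth was not limiting for members in cells, where the lowest was Epha7 with 40 to 236 counts.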
